A study of Mus musculus with 9 samples.

Results

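Chemokine genes and chemokine receptor genes were followed in RNA-seq of murine splenic CD4+ T cells that were rested, activated, or activated in the presence of TRAIL (TNF-related apoptosis-inducing ligand). Members were chosen by gene symbol alone. Ligands were the genes named Ccl or Cxcl with a number, *Xcl1* and *Cx3cl1*, and receptors were the genes named Ccr, Cxcr or Ackr with a number, *Xcr1* and *Cx3cr1*. Of 55487 genes listed, 71 met this rule, namely 48 ligand genes under 42 symbols and 23 receptor genes. The CD4+ T cells came from wild-type (*Trail-r*+/+) C57BL/6 mice, which the study's methods describe as female, and were purified from spleen by negative selection, that is by removing the other cells. The 9 libraries formed 3 groups of 3: cells kept in medium alone (without Abs or TRAIL, for a time that is not given), cells stimulated for 24 h with Abs to CD3 at 3 µg/ml and to CD28 at 2 µg/ml, and cells that received 10 µg/ml of TRAIL beside these Abs. The comparison of the stimulated groups addresses how engagement of the TRAIL receptor alters the transcripts of T cells activated through the T cell receptor (TCR). TRAIL given without Abs and *Trail-r*-/- cells were not analysed here, and no source says whether the libraries of a group came from separate mice or cultures, so p-values measure only the spread between these libraries, which may be technical.

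Chemokines are small, mostly secreted proteins that direct the migration of leukocytes by binding G protein-coupled receptors, and they are named after the spacing of conserved cysteines (C, CC, CXC and CX3C). Resting T cells home to lymphoid tissue with CCR7, follow CXCL12 with CXCR4, and enter B cell follicles when they carry CXCR5. Activated and memory T cells exchange these for receptors that lead to inflamed tissue, and T cells also secrete chemokines themselves, such as CCL3, CCL4, CCL5 and XCL1. Atypical receptors (ACKR) bind chemokines without the usual G protein signal and remove them.

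Levels are given in TPM, a length-corrected share of all transcripts on a scale with the same total in every library, which can therefore be compared between genes. The sequencing depth behind these values is unknown, because TPM does not keep the number of reads. Between 13691 and 14909 genes reached 1 TPM per library, fewest in the 3 stimulated libraries (13691 to 14015). Differences were tested with limma on log2(TPM + 1) in 15536 genes (1 TPM or more in 3 or more libraries), and fold changes of low genes are understated on this scale. Calls required both an adjusted p (Benjamini-Hochberg) below 0.05 and a log2 fold change of at least 1 in size. Adjusted p-values below come from this limma test, SE is the standard error of the log2 fold change, and SD is over n = 3 libraries. With 3 libraries on each side, the smallest two-sided p of an exact permutation test would be 0.1. The 3 comparisons share libraries pairwise, so the fold changes of a gene in them are not independent of one another.

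Transcripts of other cells were present in these CD4+ T cell libraries and differed between the groups. *Cd4* itself measured 361, 435 and 355 TPM in medium, 169.6, 246 and 246 TPM after stimulation and 423, 397 and 333 TPM with TRAIL. The T cell markers *Cd3d*, *Cd3e*, *Cd3g*, *Cd4*, *Cd5* and *Cd28* summed to 1855 to 2001 TPM in medium, 1385 to 1497 TPM after stimulation and 1827 to 2060.3 TPM with TRAIL. In the same order, 8 B cell markers summed to 2104 to 2159, 174 to 189 and 869 to 965 TPM, and 9 macrophage and monocyte markers to 1300.4 to 1397, 22.9 to 28.4 and 1060.1 to 1208 TPM. For 5 neutrophil markers the sums were 499 to 784, 27.0 to 41.8 and 329 to 424 TPM, and *Retnlg* was listed at 0.0001 TPM, the value that the table holds in place of 0, in every stimulated library. The 4 NK cell markers summed to 96.0 to 126, 9.19 to 12.2 and 29.0 to 31.2 TPM, and *Cd8a* and *Cd8b1* to 110 to 118, 94.2 to 105 and 46.9 to 49.4 TPM. All 8 B cell, 9 macrophage, 5 neutrophil and 4 NK cell markers were called lower after stimulation, and 7, 9, 4 and 3 of them were called higher with TRAIL than after stimulation alone. Over all genes tested, 19.5% were called lower and 12.4% higher after stimulation, and 16.6% higher and 14.3% lower with TRAIL relative to stimulation. The 6 housekeeping genes summed to 10928 to 11379.7, 10951 to 12004 and 8086 to 9109.9 TPM in the same order of groups. Of these 6, 3 were called higher after stimulation and 2 lower with TRAIL relative to stimulation. The neutrophil marker *Ly6g* reached 1 TPM in the medium libraries alone and was tested only because of them. The sums of 7 dendritic cell markers were 64.0 to 67.9, 39.8 to 42.7 and 40.0 to 45.6 TPM, with 5 markers lower and *Batf3* higher after stimulation, and 4 higher and 2 lower (*Batf3* and *Zbtb46*) with TRAIL than after stimulation alone. Erythroid, stromal and endothelial, platelet, and mast cell and basophil markers also had their lowest sums after stimulation, at 14.7 to 24.9, 49.5 to 69.9, 2.82 to 4.0 and 4.21 to 6.58 TPM, against 1137 to 1394, 207 to 218, 11.4 to 14.3 and 11.5 to 14.7 TPM in medium and 321 to 370.2, 172 to 198, 5.48 to 7.58 and 7.28 to 8.59 TPM with TRAIL. The stromal and endothelial sum was almost all *Pecam1*, a gene that leukocytes also express, with *Col1a1*, *Col1a2* and *Pdgfrb* below 1 TPM in every library. Several chemokines and receptors below are known from these cells, and in bulk RNA fewer cells of a type and less RNA per cell cannot be told apart.

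Of the 48 ligand genes, 16 passed the filter, 2 of them (*Ccl2* and *Cxcl3*) through the stimulated or TRAIL-treated libraries alone. Stimulation raised 8 of these 16 ligands (12.4% of all genes tested were called higher) and lowered 2 (19.5% of all genes were called lower), and the median log2 fold change was 1.03, against -0.15 over all genes tested. TRAIL-treated cells had 7 ligands lower than stimulated cells (14.3% of all genes) and 3 higher (16.6% of all genes), with a median of -0.63 against 0.011. *Cxcl3* is among the 8 raised and the 7 lower, so these counts rest partly on selection by the filter. Without a filter on TPM, 9 ligands were higher and 2 lower after stimulation (1914 and 3048 of 29663 genes). With TRAIL relative to stimulation, 3 were then higher and 8 lower (2559 and 2222 of 29663 genes). Relative to medium, TRAIL-treated cells had 5 ligands higher (2.49% of all genes) and 0 lower in limma (2.13% of all genes), with a median of 0.31 against -0.18. In limma, 4 of the 16 ligands had lower values with both an unadjusted and an adjusted p below 0.05 but missed the fold threshold. Without the fold threshold, 3816 of all 15536 genes tested were lower at that adjusted p, a similar share. All ligand genes together summed to 232 to 250.1 TPM in medium, 562 to 725 TPM after stimulation and 305 to 364 TPM with TRAIL, and the sums of the 3 groups did not overlap.

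**Figure D1:**
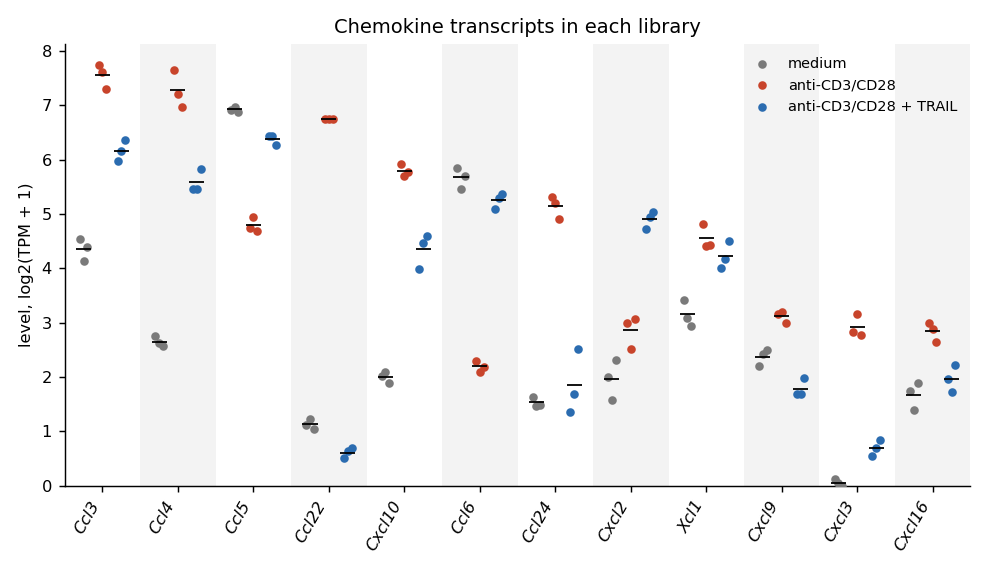
Level of the 12 ligands that were called in a comparison or reached a mean of 10 TPM, as log2(TPM + 1), in each of the 9 libraries. Points are libraries, horizontal lines are means of 3 libraries, and ligands run from left to right by their highest group mean. *Ccl22*, *Ccl24* and *Cxcl3* were high in the stimulated libraries alone, whereas *Ccl5* and *Ccl6* were lowest there and *Cxcl2* was highest with TRAIL.

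*Ccl22* gave the largest difference of any ligand tested in both comparisons with stimulated cells, on the log2(TPM + 1) scale. Its product attracts T helper 2 and regulatory T cells through CCR4, and it is best known from dendritic cells and macrophages but is also made by activated T cells. *Ccl22* (ENSMUSG00000031779, chromosome 8, 94745590 to 94751699, GRCm38) measured 1.16, 1.35 and 1.06 TPM in medium, 106, 106 and 106 TPM after stimulation and 0.414, 0.549 and 0.613 TPM with TRAIL. The 3 stimulated libraries lay far above all 6 others, and the TRAIL-treated libraries lay below the medium libraries as well. In TPM the mean was 89.1-fold higher after stimulation than in medium and 202-fold lower with TRAIL than after stimulation. The log2 fold changes were 5.61 (SE 0.11, adjusted p = 1.9e-10) and -6.13 (SE 0.11, adjusted p = 1.1e-10). The difference between TRAIL-treated and medium libraries was -0.52 (SE 0.11, adjusted p = 0.0058) and was not called. Of the 7 dendritic cell markers, *Batf3* and *Zbtb46* were also highest in the stimulated libraries, with 4.01, 3.47 and 4.73 TPM in medium, 33.0, 27.2 and 28.7 TPM after stimulation and 3.50, 5.58 and 5.63 TPM with TRAIL for *Batf3* and 2.56, 2.29 and 2.48 TPM in medium, 5.04, 5.93 and 6.60 TPM after stimulation and 1.01, 1.27 and 1.32 TPM with TRAIL for *Zbtb46*, and the other 5 were lowest there. Their part in the values of *Ccl22* was not tested.

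*Ccl24*, an attractant of eosinophils through CCR3, was likewise highest after stimulation. It measured 2.1, 1.77 and 1.80 TPM in medium, 38.5, 35.7 and 29.1 TPM after stimulation and 1.56, 2.21 and 4.72 TPM with TRAIL. Only the stimulated libraries stood apart, since the TRAIL-treated and medium libraries overlapped. It rose by a log2 fold change of 3.61 (SE 0.25, adjusted p = 6.3e-07) with stimulation and changed by -3.29 (SE 0.25, adjusted p = 1.3e-06) with TRAIL relative to stimulation. Against medium the difference was 0.32 (95% interval -0.24 to 0.89), and it was -0.01 without TRAIL-treated replicate 3, the library with the highest value of its group.

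*Ccl3* and *Ccl4* encode MIP-1α and MIP-1β, the inflammatory chemokines that T cells secrete early after TCR engagement. They were the most abundant ligands after stimulation and were called above medium with TRAIL too. *Ccl3* measured 22.3, 16.6 and 19.9 TPM in medium, 213, 195 and 157 TPM after stimulation and 61.5, 70.7 and 80.9 TPM with TRAIL. *Ccl4* measured 5.71, 5.19 and 4.93 TPM in medium, 201, 147 and 125 TPM after stimulation and 43.1, 42.9 and 55.6 TPM with TRAIL. For both genes all 3 TRAIL-treated libraries lay between the medium and the stimulated libraries, with no overlap. The log2 fold change of *Ccl3* was 3.20 (SE 0.15, adjusted p = 3.7e-08) with stimulation, -1.39 (SE 0.15, adjusted p = 1.8e-05) with TRAIL relative to stimulation, and 1.80 (SE 0.15, adjusted p = 3e-05) with TRAIL relative to medium. For *Ccl4* the corresponding values were 4.63 (SE 0.17, adjusted p = 6e-09), -1.70 (SE 0.17, adjusted p = 9.4e-06) and 2.93 (SE 0.17, adjusted p = 2.4e-06). In TPM, TRAIL-treated cells thus held 3.62 times the *Ccl3* and 8.94 times the *Ccl4* of medium cells, and their means were 2.65-fold and 3.34-fold below those of stimulated cells.

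*Ccl5* and *Ccl6* moved in the other direction. *Ccl5* encodes RANTES, which memory and CD8+ T cells and NK cells store or secrete, and which binds CCR1 and CCR3 among others. It measured 120.1, 125 and 117 TPM in medium, 25.8, 29.7 and 24.7 TPM after stimulation and 85.0, 85.7 and 76.2 TPM with TRAIL, and it was the leading ligand in medium, with 48.0 to 53.7% of all ligand TPM. Stimulated libraries were lowest and TRAIL-treated libraries lay between them and medium without overlap. The log2 fold change was -2.14 (SE 0.10, adjusted p = 2.7e-08) with stimulation and 1.59 (SE 0.10, adjusted p = 2.5e-07) with TRAIL relative to stimulation. *Ccl6* encodes a CC chemokine of mice that is known mainly from myeloid cells. It measured 56.6, 43.2 and 51.0 TPM in medium, 3.91, 3.28 and 3.55 TPM after stimulation and 33.1, 38.4 and 40.5 TPM with TRAIL. It fell with stimulation (-3.48, SE 0.13, adjusted p = 6e-09) and was higher with TRAIL (3.06, SE 0.13, adjusted p = 1.7e-08), and the 3 groups did not overlap. The macrophage, neutrophil and NK cell marker sums given above were also lowest in the stimulated libraries, whereas *Cd8a* and *Cd8b1* had their lowest sum with TRAIL. The part of these cells in the values of *Ccl5* and *Ccl6* was not tested.

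Among CXC ligands, *Cxcl9* and *Cxcl10* are interferon-inducible attractants of CXCR3-bearing T cells. *Cxcl10* measured 3.06, 3.24 and 2.72 TPM in medium, 59.2, 50.9 and 53.6 TPM after stimulation and 14.9, 21.2 and 23.1 TPM with TRAIL. It rose with stimulation (3.79, SE 0.16, adjusted p = 1.3e-08), was lower with TRAIL (-1.44, SE 0.16, adjusted p = 1.6e-05) and remained above medium (2.35, SE 0.16, adjusted p = 5.5e-06), with no overlap between groups. *Cxcl9* measured 3.59, 4.35 and 4.67 TPM in medium, 7.96, 8.19 and 6.94 TPM after stimulation and 2.21, 2.22 and 2.94 TPM with TRAIL. It had the same highest group, but its difference between stimulated and medium libraries missed the fold threshold (0.74, SE 0.14, adjusted p = 0.00074) and was called under quantile normalization (1.04), and the TRAIL-treated libraries lay below those of both other groups. Its fall with TRAIL relative to stimulation was called (-1.33, SE 0.14, adjusted p = 1.2e-05). *Cxcl16*, a membrane-bound ligand of CXCR6, measured 2.34, 1.62 and 2.69 TPM in medium, 6.94, 6.37 and 5.24 TPM after stimulation and 2.87, 2.28 and 3.65 TPM with TRAIL. It rose with stimulation (1.17, SE 0.18, adjusted p = 0.0002), whereas its lower level with TRAIL was not called (-0.88, SE 0.18, adjusted p = 0.0014; -1.0 and called without TRAIL-treated replicate 3).

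*Cxcl2* and *Cxcl3*, ligands of CXCR2 that attract neutrophils, lie in a cluster of 5 Cxcl genes that spans 146.6 kb on chromosome 5, and had their highest values in different groups. *Cxcl2* measured 3.01, 1.99 and 3.95 TPM in medium, 6.94, 4.69 and 7.38 TPM after stimulation and 25.5, 29.6 and 31.8 TPM with TRAIL. It was highest with TRAIL in all 3 libraries, and no groups overlapped. Its log2 fold change was 2.05 (SE 0.21, adjusted p = 9.6e-06) relative to stimulation and 2.94 (SE 0.21, adjusted p = 8.2e-06) relative to medium, while stimulation alone gave 0.89 (SE 0.21, adjusted p = 0.003), under the fold threshold. That last difference became 1.06 and was called without medium replicate 3, and likewise 1.06 without stimulated replicate 2. *Cxcl3* measured 6.12, 7.97 and 5.85 TPM after stimulation and 0.462, 0.610 and 0.782 TPM with TRAIL, and in medium it was listed at 0.0922, 0.0267 and 0.0001 TPM. Only the stimulated libraries held it above 1 TPM. Because *Cxcl3* passed the filter through these libraries alone, its tests among filtered genes rest on that selection. In the limma fit without a filter on TPM its log2 fold change was 2.87 (SE 0.13, adjusted p = 1.98e-06) with stimulation and -2.23 (SE 0.13, adjusted p = 7.56e-06) with TRAIL relative to stimulation. The neutrophil marker sum was highest in medium, and its part in the values of *Cxcl2* and *Cxcl3* was not tested.

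The RefSeq promoters of *Cxcl2*, *Cxcl3* and *Cxcl10* are shown because the first pair are neighbours with their highest values in different groups, and the last was the CXC ligand with the largest rise after stimulation on the log2(TPM + 1) scale. Each holds 250 bases before and 50 after the annotated start and is written 5′ to 3′ on the strand of the gene. Capitals mark matches, on either strand, to an NF-κB motif (GGGNNTTTCC, N being any base), an AP-1 motif (TGANTCA) or an interferon response core (GAAANNGAAA), which occur in 1.63%, 7.81% and 3.44% of 32851 promoters of this length.
Cxcl2: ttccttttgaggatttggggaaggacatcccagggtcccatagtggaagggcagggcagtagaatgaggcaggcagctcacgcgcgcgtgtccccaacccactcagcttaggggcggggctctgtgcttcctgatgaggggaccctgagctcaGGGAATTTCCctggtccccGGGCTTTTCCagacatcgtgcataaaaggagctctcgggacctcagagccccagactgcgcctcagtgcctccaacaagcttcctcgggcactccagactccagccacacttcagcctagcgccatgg
Cxcl3: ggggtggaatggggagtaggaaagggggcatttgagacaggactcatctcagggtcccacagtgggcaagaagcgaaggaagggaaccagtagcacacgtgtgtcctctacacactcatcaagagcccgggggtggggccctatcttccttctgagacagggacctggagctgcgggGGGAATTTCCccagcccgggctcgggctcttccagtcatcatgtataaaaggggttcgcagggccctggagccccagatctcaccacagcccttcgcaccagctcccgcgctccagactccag
Cxcl10: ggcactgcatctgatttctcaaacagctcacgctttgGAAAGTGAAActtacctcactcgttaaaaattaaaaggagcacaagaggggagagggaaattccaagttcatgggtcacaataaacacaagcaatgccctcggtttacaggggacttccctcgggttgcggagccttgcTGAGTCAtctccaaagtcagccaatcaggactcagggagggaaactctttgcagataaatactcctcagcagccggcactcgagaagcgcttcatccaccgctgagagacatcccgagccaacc
The windows lie at chr5:90903649-90903948 (plus strand, *Cxcl2*), chr5:90785851-90786150 (plus strand, *Cxcl3*) and chr5:92348840-92349139 (minus strand, *Cxcl10*) of GRCm38.p6. *Cxcl2* holds NF-κB matches that begin 97 and 78 bases before the start, and *Cxcl3* holds 1 that begins 73 bases before it, with the same 10 letters as the first match of *Cxcl2*. *Cxcl10* holds the interferon response core 213 bases and the AP-1 letters 74 bases before its start, and no marked matches overlap. Among the 11 of 16 ligands tested that have a promoter entry, 3 matched the NF-κB motif (*Ccl9*, *Cxcl2* and *Cxcl3*), 4 the AP-1 motif (*Ccl27a*, *Ccl9*, *Cxcl10* and *Cxcl9*) and 1 the interferon response core. Of the 15 of 19 receptors with an entry, *Ccr3* matched the NF-κB and AP-1 motifs and *Ccr4* the AP-1 motif. These matches describe letters, and binding was not measured.

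*Xcl1* encodes lymphotactin, a chemokine of activated T and NK cells that attracts cross-presenting dendritic cells through XCR1. It measured 9.72, 7.53 and 6.69 TPM in medium, 27.3, 20.2 and 20.6 TPM after stimulation and 15.0, 17 and 21.6 TPM with TRAIL. It rose with stimulation (1.40, SE 0.18, adjusted p = 5.2e-05), and the stimulated and TRAIL-treated libraries overlapped, with a difference of -0.33 (95% interval -0.73 to 0.06, adjusted p = 0.12). TRAIL-treated cells were above medium (1.07, SE 0.18, adjusted p = 0.0019), but this call was lost without medium replicate 3 (0.97) and without TRAIL-treated replicate 3 (0.93). The 4 NK cell markers fell with stimulation, and their part in the values of *Xcl1* was not tested.

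The remaining 4 ligands tested were not called. *Ccl25*, an attractant of CCR9-bearing gut-homing cells, had means of 8.18 ± 0.377 TPM in medium, 9.25 ± 1.26 TPM after stimulation and 6.85 ± 1.40 TPM with TRAIL (SD, n = 3). *Ccl9* had means of 4.88 ± 0.596, 3.36 ± 0.697 and 4.83 ± 0.104 TPM (SD, n = 3), and *Ccl27a* of 3.69 ± 0.487, 1.82 ± 1.08 and 3.30 ± 0.519 TPM (SD, n = 3). *Ccl2*, the monocyte attractant MCP-1, was listed at 0.0001, 0.0907 and 0.195 TPM in medium, 1.30, 1.11 and 0.501 TPM after stimulation and 0.467, 0.440 and 1.79 TPM with TRAIL. None reached the thresholds in any of the 3 comparisons with limma. After stimulation, however, *Ccl9* (-0.44), *Ccl27a* (-0.8) and *Ccl2* (0.83) had an adjusted p below 0.05 in limma, at 0.017 each. *Ccl2* passed the filter through the stimulated or TRAIL-treated libraries alone, so its test rests on that selection. With TRAIL relative to stimulation, *Ccl25* (-0.39, adjusted p = 0.04), *Ccl9* (0.43, adjusted p = 0.019) and *Ccl27a* (0.68, adjusted p = 0.037) were below 0.05 in limma as well.

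A further 32 ligand genes did not pass the filter, and their highest value in any library was 2.05 TPM, for *Ccl17*, the other CCR4 ligand and a neighbour of *Ccl22*. *Ccl17* was listed at 2.05, 1.32 and 0.695 TPM after stimulation and at 0.0001 TPM in all medium libraries, and *Cxcl11*, the other CXCR3 ligand in this list which the mouse annotation lists as a polymorphic pseudogene, at 1.04, 0.669 and 0.977 TPM after stimulation and at most 0.0685 TPM elsewhere. Both thus had their highest libraries in the stimulated group, without a test. *Cxcl12* and *Cxcl13*, the stromal ligands of CXCR4 and CXCR5, were listed at 0.718 to 0.831 and 0.595 to 1.17 TPM in medium and at 0.0001 TPM after stimulation. Ligand genes at 0.0001 TPM in all 9 libraries numbered 9, among them *Ccl11*, *Ccl26*, *Cxcl14* and *Cxcl15*, and 7 ligand genes lie on unplaced scaffolds as copies of *Ccl19*, *Ccl21a*, *Ccl21b*, *Ccl21c* and *Ccl27a*, between which reads cannot be divided with certainty.

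Of the 23 receptor genes, 19 passed the filter, and in 3 of them (*Ackr2*, *Ccr10* and *Xcr1*) medium was the only group with 1 TPM or more in every library. Stimulation lowered 13 of these 19 receptors and raised 3, which compares with 19.5% and 12.4% of all genes tested, and the median log2 fold change was -1.43 against -0.15 over all genes. With TRAIL, 11 receptors were higher and 3 lower than after stimulation alone (16.6% and 14.3% of all genes), with a median of 1.19 against 0.011. Relative to medium, 1 receptor was higher and 3 were lower with TRAIL (2.49% and 2.13% of all genes), with a median of -0.47 against -0.18. The 13 that fell include *Ackr2*, *Ccr10* and *Xcr1*. *Ackr2* and *Ccr10* are among the 11 higher with TRAIL, and *Ackr2* is among the 3 below medium. These counts and medians thus rest partly on selection by the filter. Without a filter on TPM, 14 receptors were lower and 3 higher after stimulation (3048 and 1914 of 29663 genes). With TRAIL relative to stimulation, 11 were then higher and 3 lower (2559 and 2222 of 29663 genes). Over all receptor genes the sums were 1069 to 1149 TPM in medium, 838 to 870.4 TPM after stimulation and 1357 to 1502 TPM with TRAIL, and no groups overlapped.

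**Figure D2:**
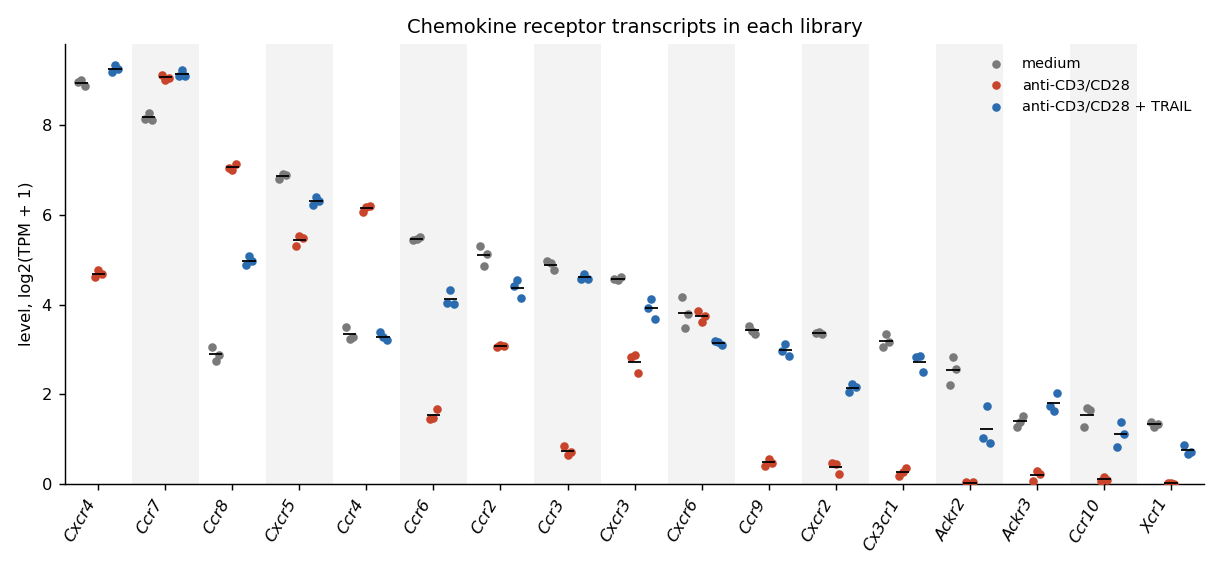
Level of 17 receptors that were called in a comparison or reached a mean of 10 TPM, as log2(TPM + 1), in each of the 9 libraries. Points are libraries and horizontal lines are means of 3 libraries. *Cxcr4* and most other receptors were lowest in the stimulated libraries, *Ccr8* and *Ccr4* were highest there, and the values of *Ccr7* overlapped between the stimulated and TRAIL-treated libraries.

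*Cxcr4*, the receptor for CXCL12 that holds resting lymphocytes in lymphoid tissue and bone marrow, showed the largest fall of any receptor tested on the log2(TPM + 1) scale. *Cxcr4* (ENSMUSG00000045382, chromosome 1, 128588199 to 128592293, GRCm38) measured 498, 517 and 468 TPM in medium, 23.5, 26.3 and 24.7 TPM after stimulation and 587, 651 and 607 TPM with TRAIL. The stimulated libraries were 19.9-fold below medium in mean TPM, and the TRAIL-treated libraries lay above all libraries of both other groups. The log2 fold change was -4.26 (SE 0.09, adjusted p = 1.9e-10) with stimulation and 4.58 (SE 0.09, adjusted p = 1.7e-10) with TRAIL relative to stimulation. Against medium it was 0.31 (SE 0.09, adjusted p = 0.021), under the fold threshold. At 468 TPM or more in each medium and TRAIL-treated library, *Cxcr4* took 43.3 to 45.0% of all receptor TPM there.

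*Ccr7*, which guides naive and central memory T cells into lymph nodes and the T cell zone of the spleen, did not share this fall. It measured 279.5, 311 and 278 TPM in medium, 561, 518 and 533 TPM after stimulation and 545, 601 and 546 TPM with TRAIL. All stimulated and TRAIL-treated libraries were above all medium libraries, and those groups overlapped each other. With stimulation the log2 fold change was 0.89 (SE 0.09, adjusted p = 8.8e-06), which missed the fold threshold, and between TRAIL-treated and stimulated cells it was 0.07 (95% interval -0.13 to 0.27, adjusted p = 0.51). TRAIL-treated cells exceeded medium by 0.96 (SE 0.09, adjusted p = 5.4e-05), also under the threshold, but this was 1.01 and called without medium replicate 2 and 1.15 and called under median-of-ratios scaling. *Ccr7* took 25.2 to 27.1% of all receptor TPM in medium, 61.7 to 64.4% after stimulation and 39.6 to 40.1% with TRAIL.

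*Cxcr5*, carried by B cells and follicular helper T cells, was the third receptor by level in medium. It measured 111, 120.2 and 117 TPM in medium, 38.6, 45.2 and 44.1 TPM after stimulation and 73.6, 82.9 and 78.7 TPM with TRAIL. It fell with stimulation (-1.43, SE 0.09, adjusted p = 4e-07), and its higher level with TRAIL was not called (0.87, SE 0.09, adjusted p = 1.7e-05) although the groups did not overlap. *Ccr6*, the receptor for CCL20 on B cells and T helper 17 cells, measured 42.1, 43.1 and 44.2 TPM in medium, 1.74, 1.76 and 2.17 TPM after stimulation and 15.5, 19.1 and 15.1 TPM with TRAIL. The log2 fold change of *Ccr6* was -3.93 (SE 0.12, adjusted p = 1.9e-09) with stimulation, 2.60 (SE 0.12, adjusted p = 3.2e-08) with TRAIL relative to stimulation and -1.34 (SE 0.12, adjusted p = 4.1e-05) with TRAIL relative to medium, so that TRAIL-treated libraries lay between the other groups. The summed B cell markers were likewise lowest after stimulation and intermediate with TRAIL, and their part in the values of *Cxcr5* and *Ccr6* was not tested.

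The receptors that stimulation raised included *Ccr8* and *Ccr4*, which are associated with regulatory and T helper 2 cells. *Ccr8* measured 7.32, 5.68 and 6.34 TPM in medium, 131, 127 and 140.5 TPM after stimulation and 28.3, 33.1 and 30.6 TPM with TRAIL. It rose 20.6-fold in mean TPM (4.17, SE 0.11, adjusted p = 9e-10), was lower with TRAIL (-2.08, SE 0.11, adjusted p = 9.4e-08), and was the only receptor called higher with TRAIL than in medium (2.09, SE 0.11, adjusted p = 1.3e-06). *Ccr4* measured 10.3, 8.4 and 8.66 TPM in medium, 66.3, 71.5 and 72.1 TPM after stimulation and 9.38, 8.65 and 8.26 TPM with TRAIL. It rose with stimulation (2.81, SE 0.11, adjusted p = 8.1e-09) and was lower with TRAIL (-2.86, SE 0.11, adjusted p = 8.8e-09), and TRAIL-treated and medium libraries overlapped, with a difference of -0.05 (95% interval -0.29 to 0.19). The stimulated libraries of both receptors stood above the rest. Among the markers of other cells, *Batf3* and *Zbtb46* (dendritic cells) and *Cd8a* (CD8 T cells) were highest after stimulation and called lower with TRAIL as well. The remaining members of these lists differed. The dendritic cell markers *Flt3*, *Itgax*, *Clec9a*, *Siglech* and *Cd209a* were lowest after stimulation, and the CD8 T cell marker *Cd8b1* was highest in medium. No list of other cells had its highest sum after stimulation. The part of other cells in the values of *Ccr8* and *Ccr4* was not tested.

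A second group of receptors is known from memory and effector T cells as well as from other leukocytes. *Cxcr3*, the receptor for CXCL9 and CXCL10 on T helper 1 cells, measured 22.6, 22.3 and 23.5 TPM in medium, 6.09, 6.37 and 4.52 TPM after stimulation and 14.2, 16.5 and 11.8 TPM with TRAIL. *Ccr2*, the MCP-1 receptor of monocytes and some memory T cells, measured 38.7, 28.0 and 33.7 TPM in medium, 7.27, 7.58 and 7.41 TPM after stimulation and 20.2, 22.3 and 16.8 TPM with TRAIL. *Ccr9*, the gut-homing receptor, measured 10.5, 9.57 and 9.12 TPM in medium, 0.317, 0.475 and 0.387 TPM after stimulation and 6.80, 7.70 and 6.20 TPM with TRAIL. For each of these 3 genes the medium libraries were highest and the stimulated libraries lowest, and no groups overlapped. With stimulation the log2 fold changes were -1.85 (SE 0.15, adjusted p = 1.7e-06) for *Cxcr3*, -2.02 (SE 0.14, adjusted p = 5.9e-07) for *Ccr2* and -2.94 (SE 0.12, adjusted p = 1.3e-08) for *Ccr9*. With TRAIL relative to stimulation they were 1.19 (SE 0.15, adjusted p = 4.7e-05), 1.29 (SE 0.14, adjusted p = 1.7e-05) and 2.50 (SE 0.12, adjusted p = 4.8e-08) in the same order, and none was called against medium in limma (adjusted p = 0.0081, 0.004 and 0.02, log2 fold changes -0.66, -0.73 and -0.44).

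*Ccr3*, *Cx3cr1* and *Cxcr2*, which are best known from other leukocytes, fell to below 1 TPM with stimulation. *Ccr3*, the eotaxin receptor of eosinophils, measured 30.2, 29.6 and 26.4 TPM in medium, 0.796, 0.549 and 0.641 TPM after stimulation and 22.9, 24.7 and 22.6 TPM with TRAIL. It was 43.4-fold lower after stimulation than in medium and 35.4-fold higher with TRAIL than after stimulation in mean TPM. As log2 fold changes these were -4.16 (SE 0.11, adjusted p = 8.6e-10) and 3.88 (SE 0.11, adjusted p = 1.6e-09). The eosinophil markers *Siglecf*, *Epx*, *Prg2* and *Il5ra*, a list chosen after their values were seen, summed to 32.4 to 37.1 TPM in medium, 2.43 to 3.52 TPM after stimulation and 27.6 to 33.2 TPM with TRAIL. All 4 were called lower after stimulation (19.5% of all genes), among them *Siglecf*, which held 1 TPM in every library of the medium group alone. Because of that choice, this count describes the list and tests nothing. *Cx3cr1*, the fractalkine receptor of monocytes, macrophages and cytotoxic lymphocytes, measured 7.33, 9.12 and 7.99 TPM in medium, 0.135, 0.198 and 0.272 TPM after stimulation and 6.08, 6.20 and 4.64 TPM with TRAIL. Its log2 fold change was -2.93 (SE 0.14, adjusted p = 3.5e-08) with stimulation and 2.46 (SE 0.14, adjusted p = 1.4e-07) with TRAIL relative to stimulation. *Cxcr2*, the neutrophil receptor for CXCL2 and CXCL3, measured 9.28, 9.42 and 9.19 TPM in medium, 0.369, 0.362 and 0.157 TPM after stimulation and 3.15, 3.69 and 3.45 TPM with TRAIL, and the corresponding log2 fold changes were -2.99 (SE 0.12, adjusted p = 1e-08) and 1.78 (SE 0.12, adjusted p = 4.9e-07). For all 3 receptors the groups did not overlap. *Cxcr2* was also lower with TRAIL than in medium (-1.22, SE 0.12, adjusted p = 7.8e-05). In that comparison 2.13% of all genes were called lower, and none of the 5 neutrophil markers was called in limma. Of these markers, 4 were lower with both an unadjusted and an adjusted p below 0.05 in limma but missed the fold threshold. Without that threshold, 3816 of all 15536 genes tested were lower at that adjusted p. The median log2 fold change of the neutrophil markers was -0.79. The part of other cells in these values was not tested.

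*Xcr1* and *Ccr10* lay near the expression filter, which both would have passed through the medium libraries alone. *Xcr1*, the XCL1 receptor of cross-presenting dendritic cells, measured 1.6, 1.42 and 1.52 TPM in medium and 0.824, 0.581 and 0.634 TPM with TRAIL, and was listed at 0.0141, 0.010 and 0.0001 TPM after stimulation. *Ccr10*, the skin-homing and plasma cell receptor for CCL27 and CCL28, measured 1.42, 2.21 and 2.11 TPM in medium, 0.0394, 0.117 and 0.0606 TPM after stimulation and 0.770, 1.59 and 1.15 TPM with TRAIL. For both, all stimulated libraries were below all others. In the limma fit without a filter on TPM, the log2 fold change with stimulation was -1.32 (SE 0.07, adjusted p = 2.82e-06) for *Xcr1* and -1.43 (SE 0.16, adjusted p = 0.000222) for *Ccr10*. Under quantile normalization these became -0.91 and -0.97 and were not called. The higher level of *Ccr10* with TRAIL than after stimulation was at the fold threshold in the fit without a filter, at 1.00 (SE 0.16, adjusted p = 0.00159), and with the filter the call was lost in turn without stimulated replicate 1 (0.98), stimulated replicate 3 (0.99), TRAIL-treated replicate 2 (0.87) or TRAIL-treated replicate 3 (0.999), and under quantile normalization (0.59). For *Xcr1* that difference was 0.73 (SE 0.07, adjusted p = 6.4e-05) without the filter and was not called, but it was 2.84 and called with a pseudocount of 0.1.

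*Ackr2* and *Ackr3* are atypical receptors. *Ackr2*, a scavenger of inflammatory CC chemokines, measured 3.64, 6.14 and 4.94 TPM in medium and 1.02, 2.31 and 0.889 TPM with TRAIL, and was listed at 0.0230, 0.0001 and 0.0217 TPM after stimulation. It would have passed the filter through the medium libraries alone, so its values are given from the limma fit without a filter on TPM. Its log2 fold change there was -2.52 (SE 0.24, adjusted p = 9.25e-05) with stimulation, -1.32 (SE 0.24, adjusted p = 0.0106) with TRAIL relative to medium and 1.2 (SE 0.24, adjusted p = 0.00506) with TRAIL relative to stimulation. With the filter, the last of these was 0.94 and not called without TRAIL-treated replicate 2, and 0.85 and not called under quantile normalization. *Ackr3*, which scavenges CXCL12, measured 1.42, 1.61 and 1.86 TPM in medium, 0.0434, 0.224 and 0.160 TPM after stimulation and 2.34, 2.1 and 3.04 TPM with TRAIL. It fell with stimulation (-1.2, SE 0.14, adjusted p = 3.4e-05), a call that was lost under quantile normalization (-0.71), and was highest with TRAIL (1.61, SE 0.14, adjusted p = 4e-06 relative to stimulation). Against medium the difference with TRAIL was 0.41 (SE 0.14, adjusted p = 0.054) and was not called. *Ackr3* had the group order of *Cxcr4*, the signalling receptor for the same ligand.

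*Cxcr6* and *Ccr1* were not called in any comparison. *Cxcr6*, the CXCL16 receptor of effector and resident T cells, measured 17.1, 10.2 and 12.8 TPM in medium, 13.5, 11.2 and 12.4 TPM after stimulation and 8.09, 7.96 and 7.61 TPM with TRAIL. Medium and stimulated libraries overlapped (-0.08, 95% interval -0.44 to 0.29), and the TRAIL-treated libraries were lowest (-0.59, SE 0.16, adjusted p = 0.0088 relative to stimulation). *Ccr1* had means of 7.61 ± 0.288 TPM in medium, 4.80 ± 0.297 TPM after stimulation and 5.01 ± 0.508 TPM with TRAIL (SD, n = 3), and its difference between TRAIL-treated and stimulated cells was 0.05 (95% interval -0.20 to 0.30). The 4 receptor genes under the filter were *Cxcr1*, at 0.406 to 1.52 TPM over the 9 libraries, *Ackr1*, at 0.726 to 1.5 TPM in medium and at 0.0001 TPM after stimulation, *Ccr1l1*, at no more than 1.17 TPM, and *Ackr4*, at no more than 0.157 TPM.

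**Figure D3:**
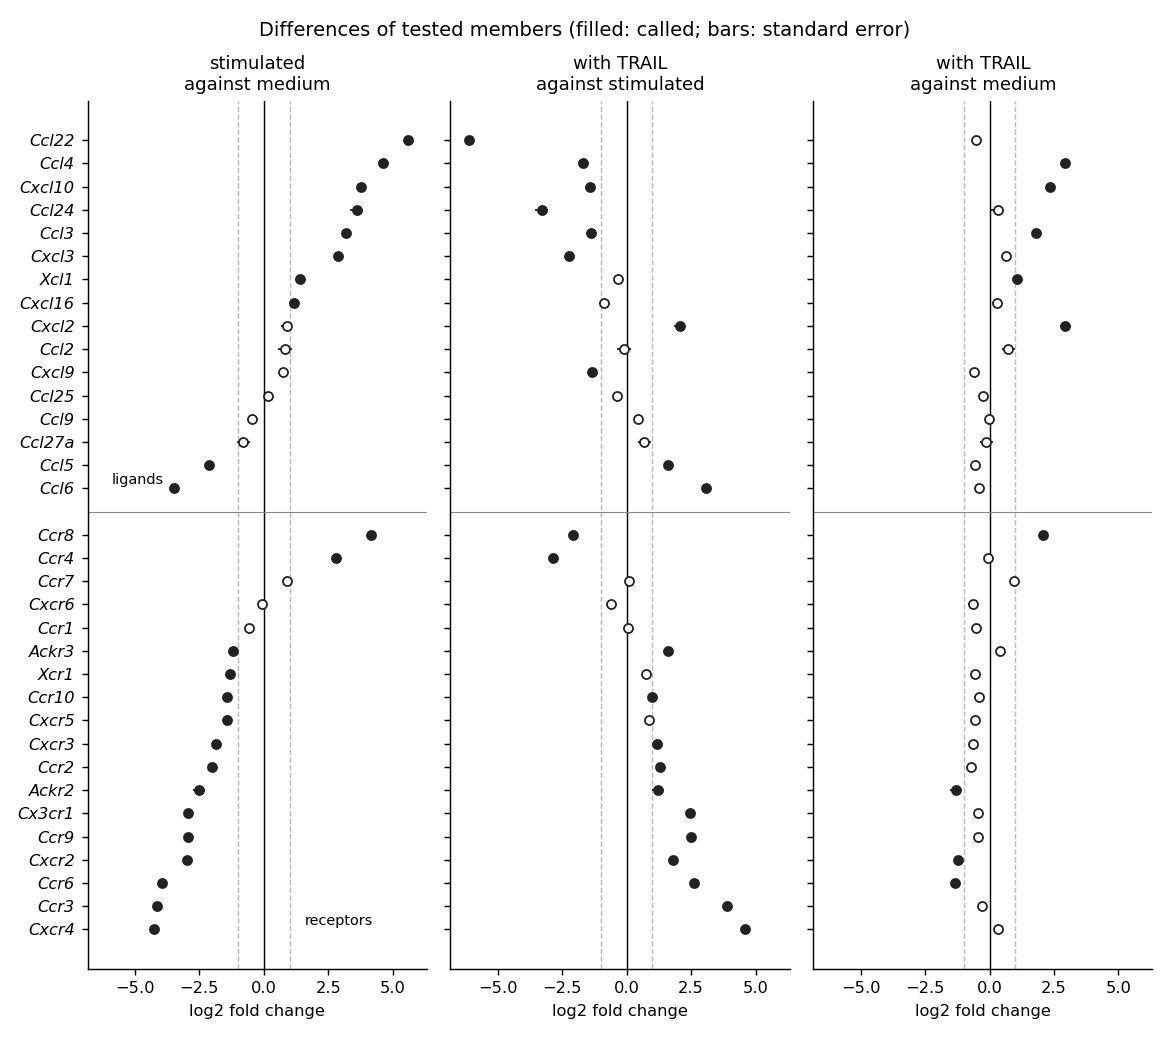
Log2 fold changes of the 16 ligands tested (top) and of 18 receptors (bottom), on the log2(TPM + 1) scale, for the 3 comparisons, ordered by the change with stimulation. Filled points were called, horizontal bars are standard errors (some are smaller than the point), and dashed lines mark a log2 fold change of 1 in either direction; the left and middle panels share the stimulated libraries.

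The 3 groups differed in which genes made up the family. In medium *Ccl5* and *Ccl6* led the ligands, with 48.0 to 53.7% and 18.6 to 22.6% of ligand TPM. After stimulation *Ccl3*, *Ccl4* and *Ccl22* led, with 27.9 to 30.7%, 22.3 to 27.7% and 14.7 to 18.8%. With TRAIL, *Ccl5* (20.9 to 27.8%), *Ccl3* (20.1 to 22.2%) and *Ccl4* (13.0 to 15.3%) led, and *Ccl3* came before *Ccl5* in replicate 3 alone. Among receptors *Cxcr4*, *Ccr7* and *Cxcr5* led in medium and with TRAIL, and *Ccr7*, *Ccr8* and *Ccr4* after stimulation, where *Ccr8* held 15.0 to 16.3% and *Ccr4* 7.62 to 8.54% of receptor TPM. The leading 3 receptors and their order were identical in the 3 libraries of each group.

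**Figure D4:**
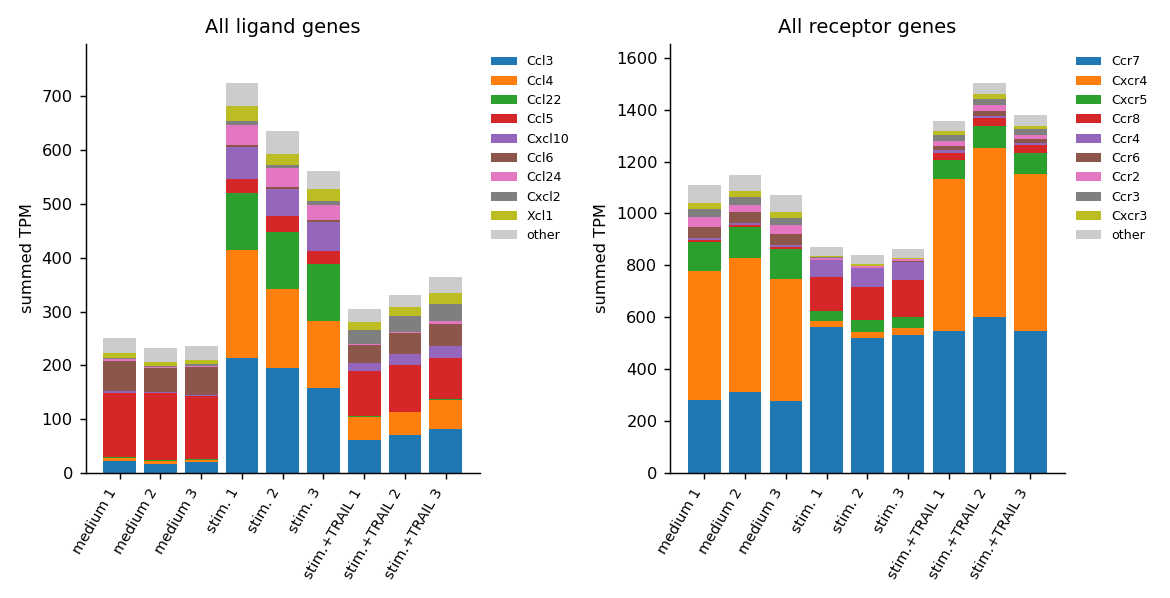
Summed TPM of all 48 ligand genes (left) and all 23 receptor genes (right) in each library, divided by gene, with the genes of lower level joined as other. Ligand sums were highest in the stimulated libraries (562 to 725 TPM) and receptor sums in the TRAIL-treated libraries (1357 to 1502 TPM), where *Cxcr4* and *Ccr7* make up most of each bar.

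Receptors and the ligands known to bind them can be set side by side as group means in medium, stimulated and TRAIL-treated cells. *Ccr4* (9.13, 70.0 and 8.76 TPM) and its ligand *Ccl22* (1.19, 106 and 0.525 TPM) were both highest after stimulation. The CCR3 ligand *Ccl24* (1.89, 34.4 and 2.83 TPM) instead rose where *Ccr3* (28.7, 0.662 and 23.4 TPM) fell, and *Cxcl10* (3.01, 54.6 and 19.7 TPM) rose where *Cxcr3* (22.8, 5.66 and 14.2 TPM) fell. *Xcl1* (7.98, 22.7 and 17.9 TPM) stood against *Xcr1* in the same manner. For the most abundant receptors, *Cxcr4* and *Ccr7*, the ligand genes *Cxcl12*, *Ccl19* and *Ccl21a* stayed below 1 TPM in every library. *Ccl1*, the ligand of CCR8, also stayed below 1 TPM, with a highest library of 0.647 TPM. These pairs are a description of bulk levels, and whether ligand and receptor belong to the same cells was not measured.

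Many members are chromosomal neighbours, which moved together in some clusters and apart in others. On chromosome 11 (83525778 to 83664683, GRCm38) *Ccl5*, *Ccl9*, *Ccl6*, *Ccl3* and *Ccl4* lie within 138.9 kb. Of these, *Ccl5* and *Ccl6* fell with stimulation, *Ccl3* and *Ccl4* rose, and *Ccl9*, which lies between *Ccl5* and *Ccl6*, was not called (-0.44). On chromosome 5, *Cxcl9*, *Cxcl10* and *Cxcl11* span 44.1 kb and all had their highest values after stimulation, as did *Ccl22* and *Ccl17* on chromosome 8, although *Cxcl11* and *Ccl17* were not tested. *Cx3cl1*, which lies between *Ccl22* and *Ccl17*, was not tested either and stayed below 1 TPM, with its lowest mean after stimulation. On chromosome 9, *Ccr9*, *Cxcr6*, *Xcr1*, *Ccr1*, *Ccr3* and *Ccr2* lie in this order, and *Ccr9*, *Xcr1*, *Ccr3* and *Ccr2* fell with stimulation while *Cxcr6* (-0.08) and *Ccr1* (-0.57) were not called. *Cx3cr1* (-2.93) and *Ccr8* (4.17), which together span 193.3 kb elsewhere on that chromosome, moved in opposite directions.

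**Figure D5:**
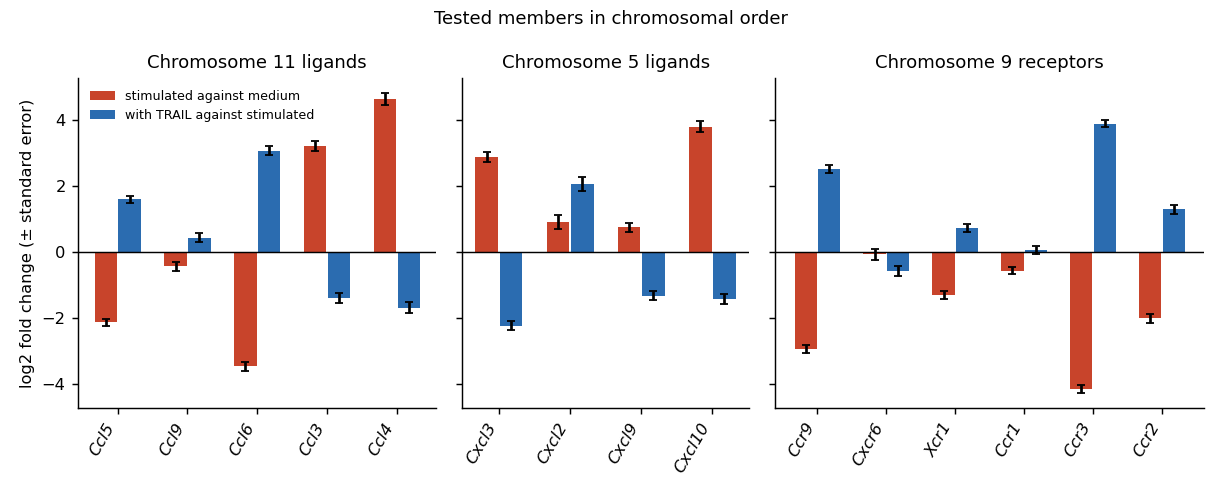
Log2 fold changes of 15 tested members in their order along chromosomes 11, 5 and 9, with standard errors as error bars. Red bars compare stimulated with medium cells and blue bars TRAIL-treated with stimulated cells; both bars change sign between the neighbours *Ccl6* and *Ccl3*, and only the blue bars do so between *Cxcl3* and *Cxcl2*.

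Beyond the ligands and receptors themselves, 32 genes that carry the receptor signal to migration, or that modify chemokines and receptors, were examined, and 31 passed the filter. After stimulation 2 were called higher (12.4% of all genes) and 9 lower (19.5%), with a median log2 fold change of -0.49. With TRAIL 6 were higher and 2 lower than after stimulation (16.6% and 14.3% of all genes, median 0.31). Relative to medium 2 were higher and 0 lower in limma (2.49% and 2.13%, median -0.21). In that comparison 14 had lower values at an unadjusted p below 0.05 in limma, and 12 at an adjusted p below 0.05, without reaching the fold threshold. Without the fold threshold, 3816 of all 15536 genes tested were lower at that adjusted p. *Pik3cg*, the catalytic subunit of the phosphoinositide 3-kinase that G proteins activate, measured 45.4, 49.4 and 45.0 TPM in medium, 6.16, 8.71 and 9.67 TPM after stimulation and 31.6, 30.8 and 25.5 TPM with TRAIL. Its log2 fold change was -2.39 (SE 0.15, adjusted p = 3.1e-07) with stimulation and 1.74 (SE 0.15, adjusted p = 3.6e-06) with TRAIL relative to stimulation. *Dpp4*, a cell-surface peptidase that trims chemokines, measured 106, 78.8 and 95.9 TPM in medium, 12.0, 16.5 and 14.3 TPM after stimulation and 67.0, 62.3 and 65.0 TPM with TRAIL, with corresponding log2 fold changes of -2.63 (SE 0.14, adjusted p = 6.7e-08) and 2.12 (SE 0.14, adjusted p = 3.6e-07). Both were lowest in all 3 stimulated libraries. *Grk3*, a kinase that desensitizes receptors, measured 13.8, 16.3 and 15.0 TPM in medium, 2.48, 4.02 and 3.87 TPM after stimulation and 16.8, 17.9 and 16.1 TPM with TRAIL, with log2 fold changes of -1.86 (SE 0.15, adjusted p = 1.7e-06) and 2.03 (SE 0.15, adjusted p = 9.8e-07). *Gng2*, *Pik3r5*, *Arrb2*, *Prex1*, *Dock2* and *Rac2* made up the rest of the 9 that fell with stimulation, and of these *Pik3r5*, *Prex1* and *Dock2* were called higher with TRAIL. In stimulated replicate 1 these 3 genes were lowest, as for *Dock2*, which measured 255, 313 and 263 TPM in medium, 78.8, 169 and 158 TPM after stimulation and 302, 277 and 235 TPM with TRAIL. Without that library *Dock2*, *Pik3r5* and *Prex1* were not called in either comparison (-0.75, -0.80 and -0.82 with stimulation, 0.72, 0.77 and 0.76 with TRAIL relative to stimulation), which left 6 genes lower with stimulation and 3 higher with TRAIL. The calls of these 3 genes with TRAIL were also lost without TRAIL-treated replicate 1 (0.99, 0.93 and 0.92), and those of *Pik3r5* and *Prex1* with stimulation without medium replicate 2 (-0.95 and -0.94). *Rgs16*, which shortens G protein signals, went the other way, with 4.87, 5.09 and 4.94 TPM in medium, 54.3, 57.0 and 45.6 TPM after stimulation and 10.8, 11.9 and 11 TPM with TRAIL, and it was called above medium with TRAIL too. Its log2 fold change was 3.15 (SE 0.11, adjusted p = 4.3e-09) with stimulation, -2.12 (SE 0.11, adjusted p = 7.8e-08) with TRAIL relative to stimulation and 1.03 (SE 0.11, adjusted p = 0.00013) with TRAIL relative to medium, the last of which was not called without TRAIL-treated replicate 2 (0.996). *Tpst1*, a sulfotransferase that modifies receptor tyrosines, was the other gene that rose with stimulation (1.12) and fell with TRAIL (-1.68), and *Rgs1*, which also limits G protein signals, was the other gene above medium with TRAIL (1.16, adjusted p = 0.0032, and 0.97 and not called without medium replicate 2). The G protein subunit *Gnai2* was among the most abundant of these genes, with means of 592 ± 43.2, 419.8 ± 13.0 and 461 ± 45.8 TPM (SD, n = 3), and was not called. Marker sums of B cells, macrophages, neutrophils and NK cells were also lowest after stimulation, and their part in the values of these signalling genes was not tested.

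*Pf4*, *Ppbp* and *Ccrl2* belong to the chemokine system under other names. *Ccrl2*, an atypical receptor that presents the attractant chemerin, measured 5.05, 4.73 and 4.83 TPM in medium, 8.58, 8.90 and 7.19 TPM after stimulation and 34.0, 37.6 and 33.9 TPM with TRAIL. It was highest with TRAIL in all 3 libraries, by a log2 fold change of 1.97 (SE 0.11, adjusted p = 1.3e-07) relative to stimulation and 2.62 (SE 0.11, adjusted p = 3.3e-07) relative to medium. The platelet chemokines *Pf4* and *Ppbp* had means of 9.94 ± 1.13 and 10.2 ± 1.32 TPM in medium, 2.11 ± 1.02 and 0.36 ± 0.0441 TPM after stimulation and 1.02 ± 0.483 and 1.72 ± 0.278 TPM with TRAIL (SD, n = 3), and both were called lower in each stimulated group than in medium, *Pf4* holding 1 TPM in every library of the medium group alone. Platelet and megakaryocyte markers were also highest in medium, and their part in these values was not tested.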

How the data were processed

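The table deposited by the authors gives TPM values for 55487 genes in 9 libraries. According to their methods, the authors trimmed reads with Trimmomatic, used HISAT2 with GRCm38, and normalized counts with DESeq2. The submitters' processing notes list Trimmomatic 0.36, HISAT2 2.1.0, SAMtools 1.2 and StringTie 2.1.2. These notes name the build GRCh38, in conflict with the methods, and GRCm38 was used here. The program behind the TPM values, the annotation release and the strand setting are not given in the sources used here. The table holds no 0, and 293137 of its values are 0.0001, which was read here as not detected, while 305 values lie below it, none of them a member's. As no counts were used, depth is unknown, no counting error can be given, and reads of near-identical or overlapping genes may be divided arbitrarily.

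Groups were taken from the labels. In R 4.3.3, the functions lmFit and eBayes (trended) of limma 3.58.1 were run on log2(TPM + 1) of all 9 libraries in 1 fit without a replicate block, for genes at 1 TPM or more in 3 or more libraries, with Benjamini-Hochberg adjustment over all 15536 genes. Members were given library by library when they were called in a comparison or had a group mean of 10 TPM or more. Motifs were searched on both strands of the RefSeq promoters (GRCm38.p6). Neighbours were members no more than 200000 bases apart. Counts, medians and sums cover every member, but 1 receptor is not reported here individually and is left out of the plots of single genes. Tables and figures used Python 3.11.15, pandas 2.3.3 and matplotlib 3.10.9. The members, gene lists, marker lists and tests were chosen with earlier results of these data known. Alternatives varied the pseudocount, filter, scaling, variance trend, libraries fitted, replicate block and thresholds. Each library was also left out once.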

Additional observations from a re-analysis of the deposited data

How the results depend on the processing

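Over 20 alternatives, 90 log2 fold changes of the members described (30 members in 3 comparisons) gave 1770 values. Of these, 1707 kept their side of the call (7 of them uncalled values near 0, for *Ccl24*, *Ccr4* and *Cxcr6*, that changed sign), 28 lost a call, 35 gained one (21 of them without the fold threshold) and 0 called values reversed, and 53 of the 90 results kept their call or lack of one under every alternative that could be fitted, or 66 under the 18 alternatives that keep the thresholds. A pseudocount of 5 ended calls of *Ackr2*, *Ackr3*, *Ccr10*, *Xcr1*, *Cxcr2*, *Cxcr3*, *Ccr2*, *Cxcl9*, *Cxcl16* and *Xcl1*, among others, and quantile normalization ended calls of *Ackr2*, *Ackr3*, *Ccr10* and *Xcr1*. Quantile normalization gave calls to *Cxcl2* (1.2) and *Cxcl9* (1.04) with stimulation and to *Cxcl16* (-1.06) with TRAIL relative to stimulation. A pseudocount of 0.1 gave calls to *Cxcl2* with stimulation (1.09), to *Cxcl16* (-1.07) and *Xcr1* (2.84) with TRAIL relative to stimulation, and to *Ccl22* (-1.05), *Cxcl3* (2.39) and *Xcr1* (-1.06) with TRAIL relative to medium. Counts of members called that moved by more than 1.5 times did so with the pseudocount or the fold threshold. For TRAIL-treated against medium cells, 5 ligands became 8 with a pseudocount of 0.1 and 10 without a fold threshold, and 4 receptors became 2 with a pseudocount of 5 and 14 without a fold threshold. For TRAIL-treated against stimulated cells, 14 receptors became 7 with a pseudocount of 5. A larger pseudocount shrinks the changes of low genes, and the fold threshold removes small ones, by construction. Leaving out each library in turn gave 10 to 11, 9 to 11 and 4 to 5 ligands, and 15 to 16, 12 to 14 and 4 to 5 receptors, for stimulated against medium, TRAIL-treated against stimulated and TRAIL-treated against medium cells. Under quantile normalization the all-gene median with stimulation went from -0.15 to 0.04 (log2), with 11 ligands higher and 2 lower, and 3 receptors higher and 10 lower. Under median-of-ratios scaling the all-gene median for TRAIL-treated against medium cells went from -0.18 to -0.016, with 2 receptors higher and 3 lower, against 1 and 3. Of 9 pairs of libraries with the same replicate number, 3 had a correlation of deviations above 0.1 (range -0.306 to 0.295), so the numbers were not taken to pair the samples. For the receptor signalling genes, leaving out each library, an alternative chosen after seeing the data, gave 8 to 11, 5 to 9 and 1 to 2 genes called in the same order of comparisons. With the replicate block, 10, 10 and 5 ligands and 16, 14 and 4 receptors were called, as without it. Group sizes of 3 and unknown depth limit every value near 1 TPM, and differences that were not called are not shown to be absent.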
